A study of Mus musculus with 2 samples.

Results

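Voltage-gated and potassium channel genes were examined in open chromatin of the embryonic mouse midbrain. The set held 138 of the 21755 protein-coding genes that GENCODE vM21 places on chromosomes 1 to 19 and X. Membership followed the symbol alone: Kcn genes, the calcium channel genes that begin with Cacna1, Cacna2d, Cacnb or Cacng, and Hcn and Scn symbols followed by a digit. By class these were 94 potassium, 26 calcium, 14 sodium and 4 Hcn genes. DNase-seq, which sequences the ends that DNase I cuts in accessible chromatin, was run on midbrain of B6NCrl embryos at embryonic day 11.5. The labels give a single group with 2 biological replicates of male and female embryos pooled together, and no control, treatment or second tissue. No test across samples or genes was made, so all statements below are descriptions of these 2 libraries.

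Voltage-gated channels open a selective pore when the membrane potential changes. Sodium channels carry the upstroke of the action potential, calcium channels couple voltage to release and signalling, and potassium channels return the membrane to rest. Hcn channels open on hyperpolarisation and pace rhythmic firing. At this stage the midbrain consists mostly of dividing progenitors and young neurons, and many channels of mature firing are known to be used later.

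The deposited lists held 305818 peaks in replicate 1 and 454408 in replicate 2, with median signals of 18 and 8, and read depth is unknown. The signal is the authors' own value per peak and was used only to describe or rank peaks within a list. Markers were checked against the labelled tissue: transcription start sites (TSSs) of 7 of 8 midbrain, 6 of 6 progenitor and 6 of 6 neuronal marker genes had peaks in both replicates, and the midbrain gene Lmx1b had one in replicate 2 only. The counts were 0 of 4 microglial, 0 of 4 erythroid, 1 of 4 endothelial, 2 of 4 mesenchymal and 2 of 8 muscle genes. The libraries were sequenced on different instruments, an effect that cannot be told apart from that of the replicate.

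Sequences at the start sites show the range of the family. Each line below gives 150 bases of mm10, read 5′ to 3′ on the gene's strand, with CG dinucleotides in capitals. The first 4 are the strongest TSS peaks of replicate 1 at Kcnab2 and Kcnh2, potassium channel genes with high TSS signals, at Hcn4, a pacemaker channel gene, and at Scn7a, the weakest open gene. The last 2 surround the 5′ ends of Kcna10 and Scn10a, which had no TSS peak.
Kcnab2 chr4:152477556-152477705: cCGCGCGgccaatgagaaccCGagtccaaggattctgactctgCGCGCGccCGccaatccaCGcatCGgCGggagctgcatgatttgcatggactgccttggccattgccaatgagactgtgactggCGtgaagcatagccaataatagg
Kcnh2 chr5:24351676-24351825: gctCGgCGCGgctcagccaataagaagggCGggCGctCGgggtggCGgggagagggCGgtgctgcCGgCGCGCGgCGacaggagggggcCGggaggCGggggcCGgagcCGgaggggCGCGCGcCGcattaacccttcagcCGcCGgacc
Hcn4 chr9:58823256-58823405: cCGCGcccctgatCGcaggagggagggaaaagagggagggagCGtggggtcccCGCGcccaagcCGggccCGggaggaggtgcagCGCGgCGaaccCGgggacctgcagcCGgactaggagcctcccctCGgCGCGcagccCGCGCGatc
Scn7a chr2:66784976-66785125: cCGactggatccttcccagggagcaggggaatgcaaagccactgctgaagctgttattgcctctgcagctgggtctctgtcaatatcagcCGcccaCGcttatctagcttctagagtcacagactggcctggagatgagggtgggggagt
Kcna10 chr3:107182981-107183130: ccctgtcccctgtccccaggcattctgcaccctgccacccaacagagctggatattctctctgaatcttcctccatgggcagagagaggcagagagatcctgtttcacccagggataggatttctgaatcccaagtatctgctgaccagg
Scn10a chr9:119719248-119719397: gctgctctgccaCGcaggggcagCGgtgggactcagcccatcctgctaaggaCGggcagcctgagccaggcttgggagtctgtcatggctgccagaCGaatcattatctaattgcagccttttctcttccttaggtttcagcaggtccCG
The Kcnh2 peak held 23 CG dinucleotides, Hcn4 19, Kcnab2 12, Scn10a 5, Scn7a 3 and Kcna10 0.

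Most channel genes already had an accessible TSS. A gene was called open where both replicates had a peak no more than 500 bp from at least 1 TSS, and closed where neither replicate had one. The peaks of the replicates did not have to overlap or lie at the same TSS. The TSS signals given per gene are those of the strongest such peak in each replicate, which can be different sites. By this rule 111 of 138 channel genes (80.4%) were open, against a background of 65.5% of all protein-coding genes. Another 21 (15.2%) were closed, against 28.1% of all genes, and 6 had a peak in 1 replicate. Channel genes had a mean of 2.23 TSSs, against 1.90 over all genes, and any of them could make a gene open. What this adds to the open share was not tested. Taken singly, 112 channel genes had a TSS peak in replicate 1 and 116 in replicate 2, a mean of 82.6% ± 2.05 (SD, n = 2), against 68.7% ± 1.05 (SD, n = 2) of all genes. In bulk tissue, a peak from a few cells and weak accessibility in many cells cannot be told apart. The 4 classes were alike, with 74 of 94 potassium, 11 of 14 sodium, 22 of 26 calcium and 4 of 4 Hcn genes open. Of 101 genes for subunits that form or join the pore 81 were open, as were 30 of 37 genes for auxiliary subunits. Genes for glutamate, GABA and glycine receptors, which act at synapses, were open in 46 of 52 cases. A mixed comparison list of 29 genes, called the partner list below, had 26 open. It held channel-associated genes such as Ank2, Ank3 and Dpp6. It also held Atp1a and Atp1b sodium pump genes, Nalcn, Tpcn1, Tpcn2, Hvcn1, Rest and Rcor1, so not all its members are channel partners.

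**Figure D1:**
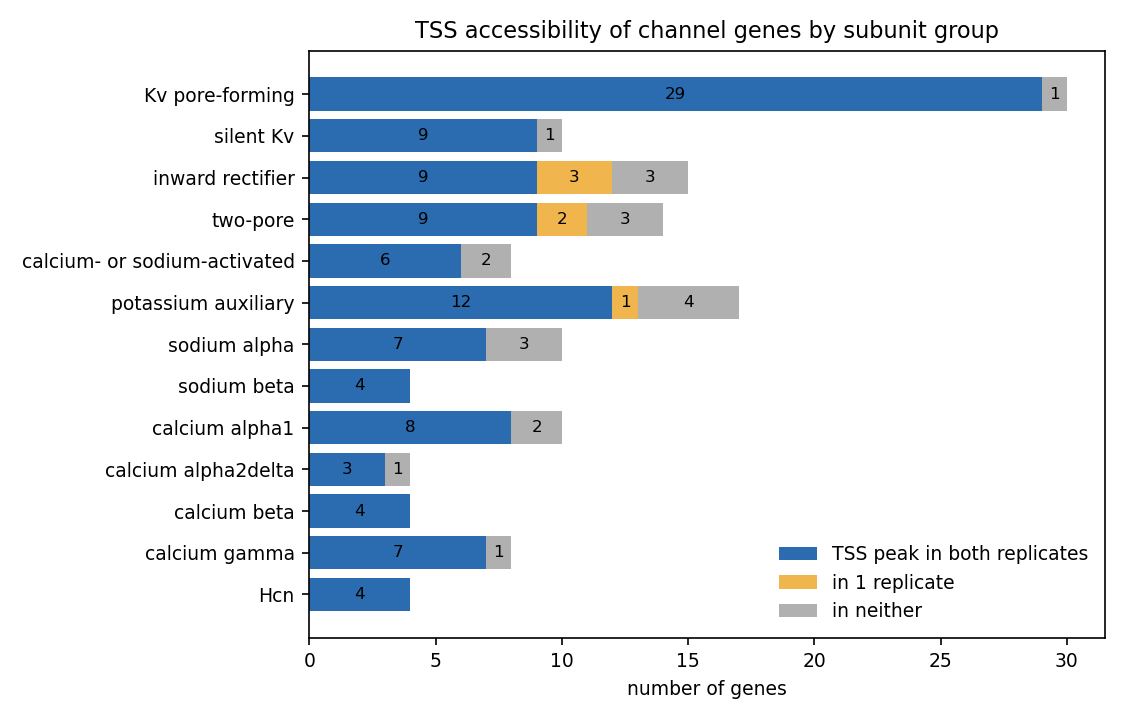
Number of channel genes in each subunit group (horizontal axis) whose TSSs had a peak in both replicates, in 1 replicate or in neither. Kv pore-forming genes were open in 29 of 30 cases, and the genes without a TSS peak were spread over 10 of the 13 groups.

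The pore-forming Kv genes, whose products repolarise the action potential, were open in 29 of 30 cases. Kcnh2, which encodes the ERG channel, had TSS signals of 124 in replicate 1 and 73 in replicate 2, and Kcna3, a Shaker-type channel gene, had 103 and 83. These were among the highest of the group, at mean percentiles of 62.3 and 57.8 among the TSS signals of all open genes. Kcnd1, an A-type channel gene, was at the other end with 23 and 15, a percentile of 1.32. The single closed gene of the group was Kcna10, known from hair cells of the inner ear, whose neighbours Kcna2 and Kcna3 on chromosome 3 were both open.

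The silent Kv genes encode subunits that reach the membrane only in heteromers with other Kv subunits. Of these, 9 of 10 were open, with Kcnf1 highest at 97 and 60, Kcng1 next at 55 and 59, and Kcnv1 at 67 and 51. The closed gene was Kcnv2, known from photoreceptors. Kcng2 was open with unequal peaks, with a signal of 67 in replicate 1 and 10 in replicate 2.

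Inward rectifiers, which hold the resting potential, were open in 9 of 15 cases (60.0%, near the 65.5% of all genes), and taking replicate 2 by itself 12 of 15 had a TSS peak. Kcnj2, which encodes a strong inward rectifier, had signals of 124 and 72. Kcnj11, the pore of the ATP-sensitive channel, had 94 and 75, and Kcnj6, a channel opened by G proteins, had 96 and 63. Kcnj9, another G protein-gated channel gene, had 90 in replicate 1 and 25 in replicate 2. Kcnj12, Kcnj13 and Kcnj16 had a TSS peak in replicate 2 only, with signals of 32, 11 and 16. Kcnj1, the renal outer medullary channel gene, Kcnj14 and Kcnj15 were closed.

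The K2P genes, whose products carry background potassium leak, were open in 9 of 14 cases (64.3%, near the 65.5% of all genes). Kcnk5 had 120 and 73, Kcnk10 had 101 and 66, and Kcnk12 had 89 and 62. Kcnk4 and Kcnk9 had a peak in replicate 2 only, with signals of 30 and 21. Closed members were Kcnk16, known from pancreatic islets, Kcnk18, known from sensory neurons, and Kcnk7.

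Of the genes for channels opened by calcium or sodium ions, 6 of 8 were open. Kcnn3, a small-conductance channel gene, had 123 and 59. Kcnt2, a sodium-activated channel gene, had 116 and 50, and Kcnma1, the BK channel gene, had 79 and 62. The closed genes were Kcnn4, known from red blood cells and lymphocytes, and Kcnu1, known from sperm.

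Auxiliary potassium channel genes were open in 12 of 17 cases (70.6%, near the 65.5% of all genes). Kcnab2, a beta subunit of Kv1 channels, had the highest mean percentile of all channel genes, 86.7, from signals of 136 and 84. Its TSS lies within 1000 bp of a TSS of Nphp4, a cilium gene, so the peak cannot be assigned to Kcnab2 alone. Kcnab3 had 102 and 56, and Kcnmb4, the neuronal BK beta subunit gene, had 92 and 60. Kcnmb1, the smooth muscle BK beta subunit gene, had a peak of 32 in replicate 1 only. Kcne2, Kcne4, Kcnmb3 and Kcnrg were closed.

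Sodium channel alpha genes were open in 7 of 10 cases (70.0%, near the 65.5% of all genes), and the open sodium channel genes mostly had low signals. Scn8a, which encodes a main axonal channel of the adult brain, had 103 in replicate 1 and 70 in replicate 2. Scn2a, an early axonal channel gene, had 107 and 30, and Scn3a, known from the embryonic brain, had 72 and 25. In the same chromosome 2 region, Scn1a had 65 and 40, Scn9a had 65 and 36, and Scn7a, a sodium-level sensor gene, had 14 and 12. Scn4a, the skeletal muscle channel gene, and Scn10a and Scn11a, known from nociceptors, were closed. The beta subunit genes were open in 4 of 4 cases, with signals of 86 and 44 at Scn3b, 51 and 47 at Scn4b, and 29 and 38 at Scn2b.

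Among calcium channel pore genes 8 of 10 were open (80.0%, against 65.5% of all genes). Cacna1b, the N-type channel of presynaptic terminals, had 116 and 73. Of the T-type genes, which serve firing near rest, Cacna1g had 117 and 65, Cacna1h had 97 and 75 and Cacna1i had 40 and 34. The P/Q-type gene Cacna1a had 78 and 57, the R-type gene Cacna1e had 80 and 53, and the L-type genes Cacna1c and Cacna1d had 84 and 62 and 25 and 41. Cacna1s, known from skeletal muscle, and Cacna1f, known from the retina, were closed. So 2 of the 4 L-type genes were open, and all 6 genes of the N, P/Q, R and T types.

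Among the genes for calcium channel accessory subunits, the 4 beta genes, whose products take channels to the membrane, had the highest median percentile as a group. Cacnb1 had 110 and 83, Cacnb3 had 115 and 73, Cacnb4 had 93 and 73, and Cacnb2 had 86 and 65. That median of 48.7 was the highest of the 13 groups, close to the median of 51.9 of all open genes. Of the alpha2delta genes, Cacna2d3 had 95 and 67, Cacna2d2 had 76 and 72 and Cacna2d1 had 74 and 58, while Cacna2d4, known from the retina, was closed. Gamma genes, several of which encode AMPA receptor partners, ran between 115 and 65 at Cacng2 and 34 and 25 at Cacng6. Between these lay Cacng7 with 101 and 62, Cacng3 with 90 and 62, Cacng4 with 86 and 52, Cacng8 with 78 and 37, and Cacng5 with 75 and 53. Cacng1, the skeletal muscle gamma subunit gene, was closed although its neighbours Cacng4 and Cacng5 were open.

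All 4 Hcn genes were open. Hcn3 had signals of 91 in replicate 1 and 53 in replicate 2. Hcn4, the main form of the sinoatrial node, had 53 in replicate 1 and 73 in replicate 2, and Hcn2 had 45 and 31.

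Several genes best known from the heart or muscle were open too: Kcnq1 with 27 and 28, Kcna7 with 48 and 41, and Kcne1 with 34 and 13. Of the muscle markers, Myh6, Tnnt2, Myf5 and Myf6 were closed, Myod1 and Nkx2-5 had a TSS peak in replicate 2 only, Actn2 had 114 and 52 and Myog had 22 and 12. A part of muscle cells in these channel peaks was not tested. The 21 closed channel genes had no hotspot, the authors' wider class of cut regions, at a TSS in either replicate. This was so for most closed genes, as only 68 of all 6106 closed protein-coding genes had one in any replicate. Just inside the 500 bp limit were Kcnj11, at 499 and 459 bp from its TSS, and Kcng2, at 469 and 382 bp on opposite sides of its TSS. Just outside were Kcnk9, at 536 bp, and Kcnj16, at 695 bp, both in replicate 1.

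Open channel genes had weak TSS peaks for open genes. The median signal of the 111 open channel genes was 74 in replicate 1 and 52 in replicate 2, against 113 and 70 for the 14247 open genes of the genome. Their mean percentile had a median of 21.6, against 51.9, and 9 of the 111 lay above the median of all open genes. Sodium genes were lowest by class, with a median percentile of 12.4, followed by potassium genes at 18.9, Hcn genes at 29.9 and calcium genes at 32.6. The receptor genes had a median of 15.8. By percentile within each list, 70 open channel genes were lower in replicate 1 and 41 were lower in replicate 2. Raw signals were higher in replicate 1 at 97, higher in replicate 2 at 13 and equal at 1, but the lists differ in scale and their normalization is not stated.

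**Figure D2:**
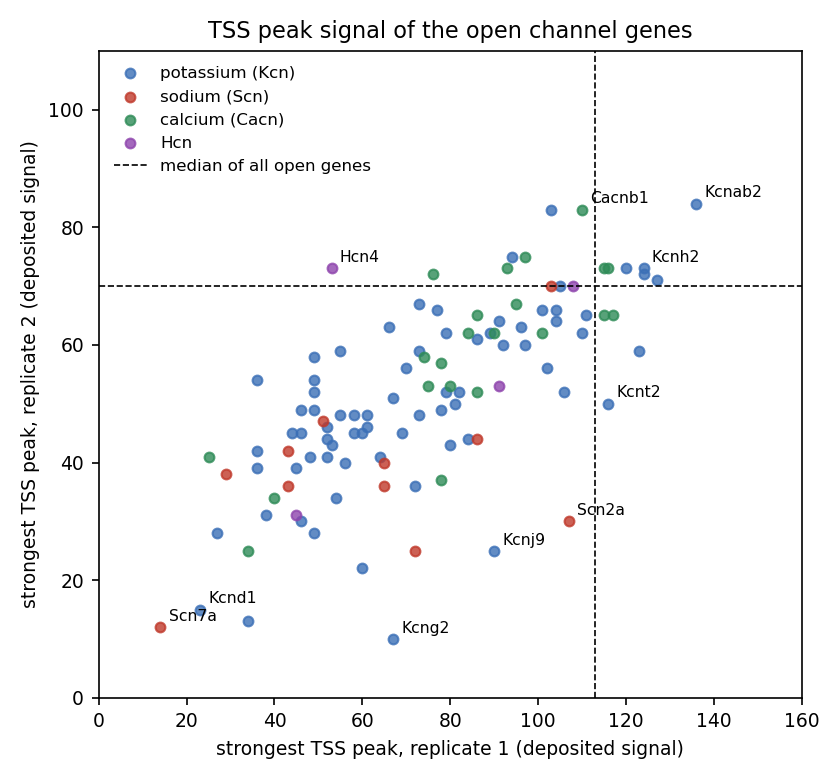
Deposited signal of the strongest TSS peak of each open channel gene in replicate 1 (horizontal axis) and replicate 2 (vertical axis), coloured by class, with dashed lines at the medians of all open genes, 113 and 70. Most points lie below and left of both lines, and Scn2a (107 and 30), Kcnj9 (90 and 25) and Kcng2 (67 and 10) stand out for a low replicate 2 value. The peaks of a gene need not be the same site in both replicates, and at Kcng2 they were not.

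Open channel genes were richer in CpG than closed ones, and so were open genes across the genome. The CpG ratio, observed over expected CG dinucleotides in 500 bp on each side of the gene's 5′ end, had a median of 0.571 in open and 0.236 in closed channel genes. The difference was 0.334, against 0.547 over all genes, whose medians were 0.709 when open and 0.162 when closed. Closed channel genes ran from 0.119 at Kcnk16 to 0.415 at Scn10a, and open ones from 0.0683 at Kcne3 to 1.04 at Kcnmb4. The ranges therefore overlapped.

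Channel genes of low CpG content were often open. In the lowest 2 quintiles of the ratio over all genes, 29 of 52 channel genes (55.8%) were open, against 22.3% of all genes. These included the calcium channel genes Cacna1a, Cacna1c, Cacna1d, Cacnb2 and Cacnb3 and the sodium channel genes Scn1a, Scn3a and Scn7a. The 5′ end where the ratio was taken is not always a TSS used here. At Cacna1a the TSSs lay 26924 and 26937 bp downstream of it. In the highest 2 quintiles 43 of 45 were open, against 97.8% of all genes, with Kcnj12 and Kcnk9 as the exceptions. If every quintile of channel genes had been open at the genome's rate, 95.2 open genes would have been counted in place of 111. Some of these genes have another TSS in CpG-rich sequence: when each gene was placed by the highest ratio over its TSSs, the lowest quintile held 8 channel genes, of which only Scn7a was open (12.5%), against 3.33% of all genes. In the second quintile by that measure 26 of 43 channel genes (60.5%) were open, against 34.7% of all genes. Scn1a and Scn3a were among these 26, but none of the calcium channel genes named above fell in either quintile by that measure.

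The low signal of open channel genes was seen in every CpG quintile. In the highest quintile their median percentile was 32.6, against 69.4 for all open genes of that quintile. In the fourth it was 31.6 against 58.6, in the third 21.8 against 34.2, in the second 13.8 against 18.3, and in the lowest 17.2 against 24.0. By the highest ratio over all TSSs the second quintile was the exception, at 13.8 against 12.8.

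**Figure D3:**
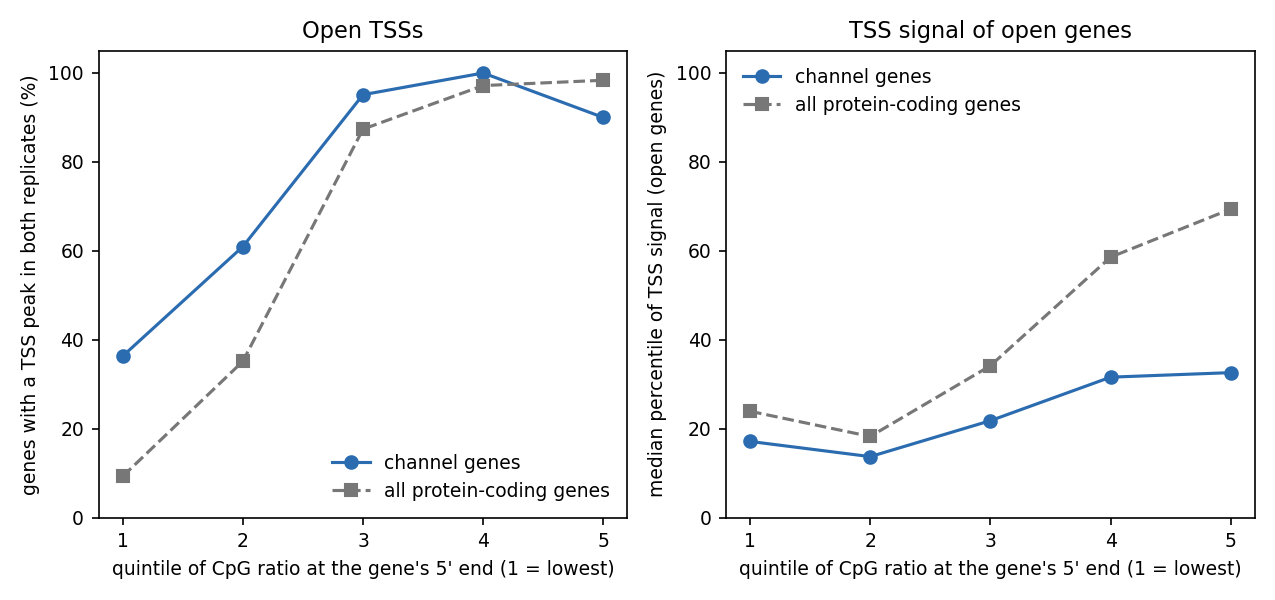
Share of genes that were open (left) and median percentile of TSS signal of the open genes (right) by quintile of the CpG ratio at the 5′ end, for channel genes (circles) and all protein-coding genes (squares). Channel genes were open more often in the lowest 2 quintiles (36.4% against 9.33%, and 61.0% against 35.2%) and had lower signals in all 5.

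The CCAAT box, CCAAT on either strand and the site of the factor NF-Y, was less frequent in these peaks than in those of all open genes. It lay in 13 of the 111 TSS peaks (11.7%), against 28.7% of all open genes, in 150 bp around the midpoint of the strongest replicate 1 peak. In the lowest quartile of TSS signal over all open genes it was found in 3 of 68 channel peaks (4.41%), against 17.4% of all genes, and in the second quartile in 5 of 34 (14.7%), against 24.5%. The third quartile held 8 channel genes, of which 4 had a match, against 33.1% of all genes. Of the peaks printed above, Kcnab2 had 4 matches and Kcnh2 had 1, whereas the Hcn4 and Scn7a peaks had 0. The GC box, GGGCGG on either strand, was about as frequent as elsewhere, in 52.3% of channel peaks against 57.7%. The E-box letters CATCTG or CAGATG were found in 3.60% against 4.48%, the Sox letters ACAATGG or CCATTGT in 0.901% against 0.948%, and the CRE letters TGACGTCA in 0.901% against 3.16%. These motifs were searched on both strands, and a match is a description of letters. The CCAAT search was added after the sequences had been seen.

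Many channel genes have several promoters, and these did not always share a state. The 138 genes had 308 distinct TSSs, which formed 203 start regions when TSSs of a gene within 500 bp were joined. Of the 49 genes with more than 1 region, 13 had all of them open, 26 had some and 10 had none with a peak in both replicates. These counts were not made over all genes, so they do not set channel genes apart. A peak between neighbouring regions counted for both, as at Kcne1, with 34 and 13 at each. Cacna1c had 5 regions, of which only that 87845 to 88443 bp downstream of its annotated 5′ end was open, while the region at the 5′ end itself had no peak. Kcnma1 had 2 open regions 9632 to 10561 bp downstream of its annotated 5′ end and 2 closed ones 211187 and 364302 bp downstream. Scn8a had signals of 103 and 70 at its first region, no peak at the second and 30 and 11 at the third, 66413 to 66467 bp downstream. Cacnb2 and Kcnip4, a Kv4 partner gene, each had 3 of 4 regions open and the other with a peak in replicate 2 only.

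Distal sites near channel genes were more numerous than near the average gene. A distal consensus site was a merged region with peaks of both replicates whose midpoint lay over 2.5 kb from every protein-coding TSS, assigned to the nearest TSS within 100 kb. Channel genes had 485 of 44711 such sites, a mean of 3.51 and a median of 2.5 per gene, against 2.06 and 1 over all genes. At least 1 was assigned to 114 of the 138 (82.6%), against 56.5% of all genes. Channel genes also have more surrounding sequence nearest to them, a median territory of 97.6 kb against 40.9 kb. Pooled per 100 kb of territory they had 2.95 sites, against 3.18 over all genes. Among genes of like territory the order depended on the width. In the lowest quartile of territory 15 channel genes averaged 0.533 sites, against 0.371 for all genes of that quartile, in the second 17 averaged 1.82 against 1.04, and in the third 37 averaged 3.59 against 2.21. In the widest quartile, over 97.5 kb, 69 channel genes averaged 4.54, against 4.51.

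The genes with most distal consensus sites were Cacna1e, Kcnh2 and Kcnrg with 14 each. Cacna1a and Cacna2d1 had 12, Kcnma1, Kcna5 and Cacna2d2 had 11, Kcnd3 and Kcnk10 had 10, and Scn8a and Kcnq1 had 9. By class the mean was 4.73 for calcium, 3.36 for potassium, 2.57 for sodium and 2.5 for Hcn genes. Within the smaller potassium groups the highest were Kcng1 with 8 among silent Kv genes, Kcnj1 and Kcnj3 with 7 among inward rectifiers, and Kcnk12 with 8 after Kcnk10. Kcnn2 had 7 after Kcnma1, and Kcnab2 had 8 after Kcnrg. Cacnb1, with one of the strongest TSS peaks, had 0, in a territory of 8.60 kb. Among the genes with 0 in territories of 116 kb or more were Kcnj2, Kcnq5, Kcnb2, Kcna4, Scn1a and Scn2a.

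Of the 485 sites, 243 (50.1%) lay inside the gene they were assigned to, and 252 were intronic, 29 exonic and 204 intergenic. Their median distance from the nearest TSS was 28.6 kb, against 23.0 kb for all distal consensus sites. Median signals were close to those of all distal sites, 47 in replicate 1 and 22 in replicate 2, against 45 and 23. The strongest was chr14:61648796-61648945, with 132 and 86, assigned to Kcnrg but within 500 bp of TSSs of the noncoding gene Dleu2. Also among the top 5 was an intronic site of Kcnj10, the astrocytic inward rectifier gene, at chr1:172349956-172350145, with 127 and 73. Another 2 of the top 5 were assigned to Kcnrg, at chr14:61681396-61681565 with 113 and 73 and chr14:61681096-61681365 with 117 and 66. In all, 14 of the 485 lay within 500 bp of a noncoding or pseudogene TSS.

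Open and closed channel genes differed in distal accessibility by an amount that depended on the measure. Counting all distal peaks of a single list, open genes averaged 16.8 and closed genes 8.71 in replicate 1, and open genes averaged 24.4 and closed genes 14.3 in replicate 2. All protein-coding genes had the same order, with 8.27 at open and 3.73 at closed genes in replicate 1 and 14.9 and 5.14 in replicate 2. Open channel genes also had wider territories, a median of 104 kb against 61.4 kb for closed ones. In consensus sites the difference was small. The 111 open genes averaged 3.63 consensus sites and the 21 closed genes 3.05, a difference of 0.583, against a difference of 1.54 over all genes. Kcnrg alone held 14 of the sites of closed genes, and without it the closed mean was 2.5 and the difference 1.13, a value computed after seeing the data. Per 100 kb of territory the order turned, with 2.82 at open and 4.21 at closed channel genes, and with 2.82 and 3.52 without Kcnrg. Over all genes the density was 3.54 at open and 1.96 at closed genes. Among channel genes of like territory, open and closed means were close. They were 0.545 and 0.667 in the lowest quartile of territory, with 3 closed genes, and 1.75 and 2 in the second, with 5. In the third they were 3.66 and 3.17, with 6, and in the widest 4.58 and 4.71, with 7. Closed channel genes with distal sites included Kcnj1 with 7, Kcne4 and Kcnk16 with 5, and Scn11a, Kcnn4, Kcnj15 and Kcnk18 with 4 each. Assignment was by distance only, so a site need not act on the gene it was given to.

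The replicates differed widely in distal peaks around single channel genes. All distal peaks of channel genes numbered 2106 in replicate 1 and 3106 in replicate 2. Kcna1, a Shaker-type channel gene, had 6 in replicate 1 and 128 in replicate 2, Hcn4 had 16 and 98, and Kcnd3 had 24 and 109. The reverse held at Cacng3, with 107 and 17, Kcnj6, with 82 and 18, and Kcnj3, with 85 and 22. Kcnq5 had 25 and 0, and Kcnt2 had 30 and 0. In total 41 channel genes had more in replicate 1, 86 more in replicate 2 and 11 the same number. Over all protein-coding genes distal peaks were also more numerous in replicate 2, at 259384 against 149612 in replicate 1. The surplus of replicate 2 is therefore not particular to channel genes, and the count by gene was not made over all genes. The consensus sites used above need both replicates and therefore leave most of these peaks out.

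**Figure D4:**
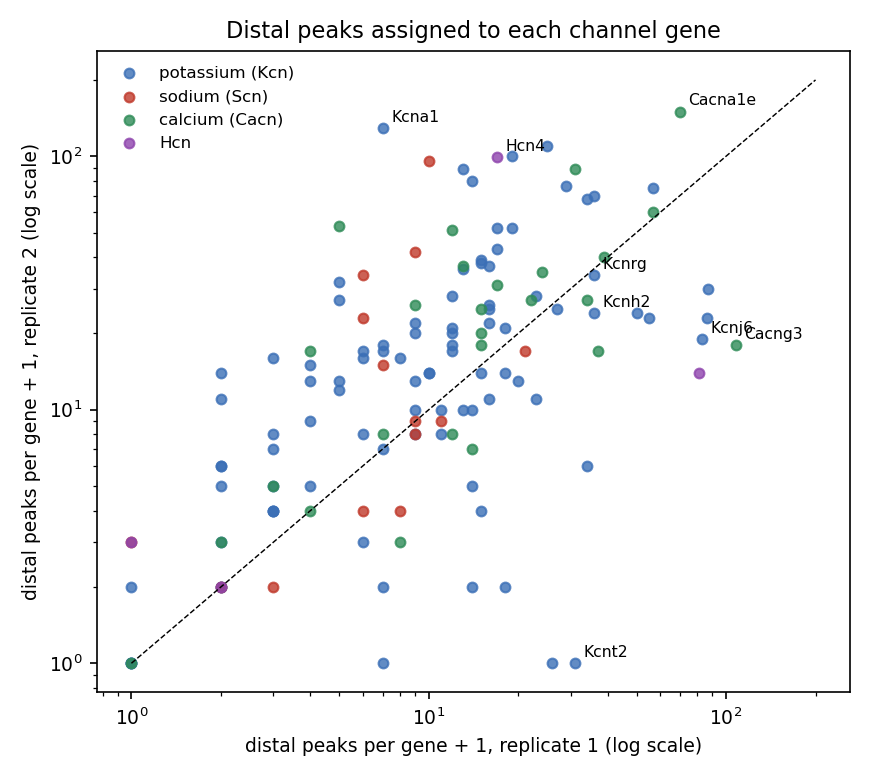
Distal peaks assigned to each channel gene, plus 1, in replicate 1 (horizontal) and replicate 2 (vertical), on log axes, with a dashed line of equal numbers. Kcna1 (6 and 128) and Hcn4 (16 and 98) lie far above the line, and Cacng3 (107 and 17), Kcnj6 (82 and 18) and Kcnt2 (30 and 0) far below it.

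RE1 is the element bound by REST, a repressor that keeps many neuronal genes silent outside neurons, and Scn2a is one of its classical targets. Rest itself had TSS signals of 88 and 76. A search for RE1 that allowed no mismatch at its fixed letters found 343 matches on chromosomes 1 to 19 and X, of which 149 (43.4%) lay in a peak of both replicates. Of the 261 matches with a TSS within 100 kb, 15 (5.75%) were nearest to a channel gene, and these were 15 different genes. Channel genes made up 0.634% of all genes and 1.17% of their summed territory. Territory leaves out sequence within 2.5 kb of a TSS, whereas matches were counted at any distance up to 100 kb. The matches of Cacna1b, Scn2a, Kcnh4, Kcnt1 and Scn3b lay within 2.5 kb of a TSS. The shares of matches and of territory therefore do not cover the same sequence. The receptor genes had 5 matches and the genes of the mixed partner list 3.

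Of these, 14 matches are printed below on the strand of the match, 5′ to 3′, with the letters that the search fixed in capitals and mm10 positions. The first 8 lay in a peak of both replicates, the next 3 in a peak of replicate 2 only and the last 3 in no peak.
Cacna1b chr2:24762083-24762103 (plus strand): gtCAGCACCacGGACAGctgC
Cacna1i chr15:80277818-80277838 (plus strand): atCAGCACCacGGACAGcgaC
Cacna2d3 chr14:29657203-29657223 (minus strand): ttCAGCACCaaGGACAGcaaC
Hcn4 chr9:58841859-58841879 (minus strand): ttCAGCACCatGGACAGtgtC
Kcnab2 chr4:152424539-152424559 (minus strand): ttCAGCACCcaGGACAGctcC
Kcnh2 chr5:24357609-24357629 (minus strand): ttCAGCACCtcGGACAGaggC
Kcnk9 chr15:72568705-72568725 (minus strand): ctCAGCACCgtGGACAGcgcC
Scn2a chr2:65619964-65619984 (plus strand): ttCAGCACCacGGACAGcacC
Cacng4 chr11:107817401-107817421 (plus strand): tcCAGCACCacGGACAGcggC
Kcnh4 chr11:100759007-100759027 (minus strand): ttCAGCACCctGGACAGccgC
Kcnt1 chr2:25864072-25864092 (minus strand): ctCAGCACCgcGGACAGctcC
Cacna1a chr8:84469287-84469307 (minus strand): tgCAGCACCatGGACAGaacC
Kcna10 chr3:107172153-107172173 (plus strand): ctCAGCACCaaGGACAGagcC
Scn3b chr9:40269740-40269760 (minus strand): ctCAGCACCacGGACAGtagC
The free letters varied among the genes, and whether any of these sites share an origin was not tested.

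In replicate 1 the strongest peak over a match was that of Kcnh2, with a signal of 89 in replicate 1 and 41 in replicate 2, 6015 bp upstream of its nearest TSS. Its consensus site of 170 bases is given on the minus strand with the fixed letters in capitals.
Kcnh2 chr5:24357576-24357745: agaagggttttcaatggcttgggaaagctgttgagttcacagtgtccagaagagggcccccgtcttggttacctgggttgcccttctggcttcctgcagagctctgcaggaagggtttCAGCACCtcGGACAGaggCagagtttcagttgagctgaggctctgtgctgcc
Cacna1b had 78 and 62 over a match 954 bp into the gene, and Scn2a had 35 and 38 over one 797 bp upstream. The others in both replicates were Kcnk9 with 42 and 45, Cacna1i with 50 and 34, Hcn4 with 36 and 28, Cacna2d3 with 27 and 19 and Kcnab2 with 35 and 11. Apart from Cacna1b in both replicates and Kcnh2 in replicate 1, these signals were below the medians of 74 and 52 at open channel TSSs. All but Cacna1b and Scn2a are distal sites, and distal consensus sites of channel genes had medians of 47 and 22. Against these, Kcnh2 and Cacna1i were higher in both replicates and Kcnk9 and Hcn4 in replicate 2 only. Cacna2d3 and Kcnab2 were lower in both. In replicate 2 only, Kcnh4 and Kcnt1 each had 43 and Cacng4 had 22. The match of Scn3b lay in an exon 63 bp from a TSS, outside any peak, although Scn3b had a TSS peak elsewhere in both replicates. Kcna10 was the only closed gene among the 15.

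**Figure D5:**
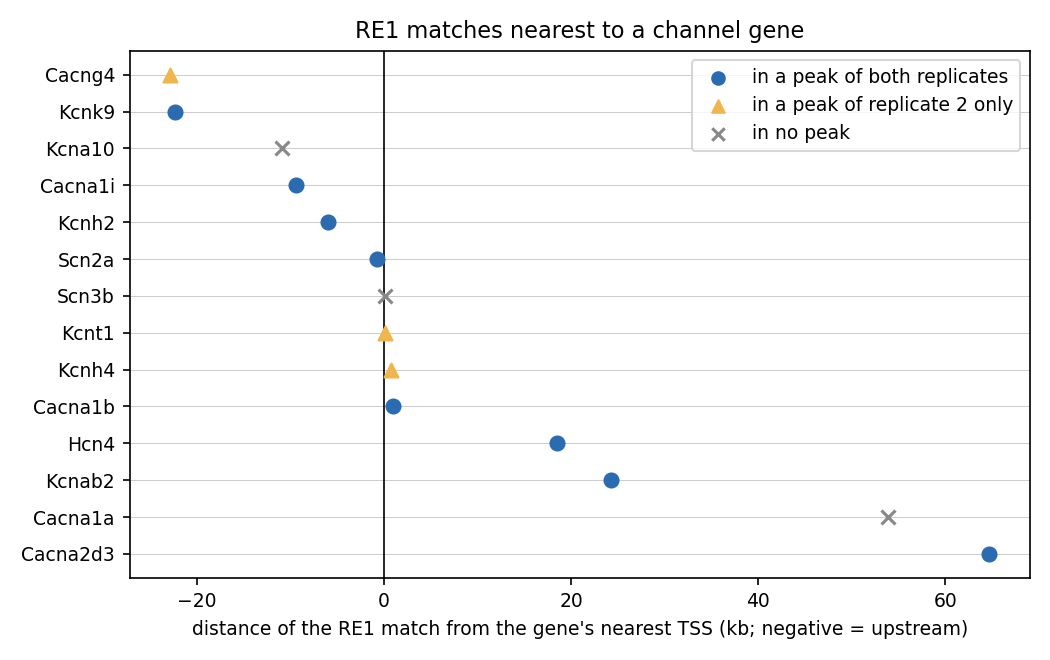
Distance of 14 RE1 matches from the nearest TSS of its channel gene in kb, negative when upstream, with symbols for peaks in both replicates, in replicate 2 only and in neither. Matches in peaks of both replicates ran from 22375 bp upstream at Kcnk9 to 64651 bp downstream at Cacna2d3.

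Within 150 bp around the midpoints of distal consensus sites, an RE1 match was present in 6 of the 485 channel sites (1.24%), against 71 of all 44711 (0.159%). The 6 are the 8 above without Cacna1b and Scn2a, whose matches lie closer to a TSS. In the strongest TSS peaks of replicate 1 RE1 was present in 0 of 111, against 12 of 14247 (0.0842%), while 1 TSS peak of replicate 2, that of Kcnt1, held a match. Among other motifs, the GC box was in 5.77% of channel distal sites against 9.27% of all distal sites, and the CRE letters in 0.206% against 0.362%. The CTCF site was in 4.95% against 4.43%, the E-box in 13.6% against 14.7%, the Sox letters in 2.68% against 2.96% and the CCAAT box in 15.5% against 17.7%. Whether REST occupied any of these matches was not measured.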

How the data were processed

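DNase-seq peaks and hotspots of 2 libraries were used as deposited on mm10, 1 list of each kind per library, per the labels. For the aligner, the caller and their settings, nothing is given in the sources used here. Deposited peaks carry a signal value, a whole number whose normalization is not stated, and the deposited hotspot value is a −log10 q-value, used here only as a list of regions. Peaks with the same coordinates were counted once. TSSs came from all basic transcripts of protein-coding genes in GENCODE vM21, and sequence from GRCm38. Percentiles of TSS signal were taken among all open genes within a replicate and averaged over both. Consensus sites joined peaks of both replicates that overlapped by at least 1 bp.

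The members, the lists and the motifs were chosen with earlier results of these data known. Named genes were all sodium, calcium and Hcn genes and, per potassium group, the 3 open genes of highest signal, the 3 with most distal sites and up to 3 closed genes. Others were those with several TSSs of unlike state, the 5 strongest distal sites and RE1 matches. Further genes, among them Scn7a and Kcnd1 as lowest values, heart and muscle genes and genes with unequal replicates, were chosen after their values were seen. Some genes that the rule takes are left out of the text.

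Python 3.11.15, pandas 2.3.3, numpy 2.4.6, pysam 0.24.0, samtools 1.23.1 and matplotlib 3.10.9 were used. The assignment steps were tested on simulated data. Alternatives changed the TSS window, the peak threshold, hotspots, transcripts, the distal limits, the overlap, the CpG window and the RE1 letters, and left out each replicate. Nothing states that the replicates come from separate litters, and their spread may be partly technical.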

Additional observations from a re-analysis of the deposited data

How the results depend on the processing

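No paired analysis was possible because the study has a single group. Counts of open and closed channel genes stayed within 1.5 times of those reported in the alternatives run, with 93 open genes at a TSS window of 150 bp (67.4%, against 59.1% of all genes) and 113 at 1000 bp. The median percentile of TSS signal of open channel genes, 21.6, was 18.2 with a 150 bp window, and 22.2 to 25.6 with 1 replicate left out. The CpG difference between open and closed genes, 0.334, was 0.322 with 250 bp on each side, 0.441 with the highest ratio over all TSSs and 0.319 to 0.332 with 1 replicate left out. Distal sites per channel gene, 3.51, were 15.3 to 22.5 with 1 replicate left out, since each peak of a single list then counted. The open minus closed difference in distal sites, 0.583, was 7.81 to 9.63 in the same way, and was reversed to -1.39 per 100 kb of territory. It was 0.203 within 50 kb, 0.202 with an overlap of 50% of the narrower peak and 1.13 without Kcnrg. The alternatives that concern chromosome X and Kcnrg were added after seeing the data. RE1 matches in TSS peaks and distal peaks or sites of channel genes ran from 6 to 8. These counts leave out the matches of Cacna1b, Scn2a and Kcnh4, whose peaks are neither within 500 bp of a TSS nor distal. Unknown read depth limits what a missing peak shows, and no peak at a TSS means only none called.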
